A study of Homo sapiens with 12 samples.

Results

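RNA of OCI-AML2 cells, an established human acute myeloid leukaemia line, was sequenced after doxycycline or vehicle treatment of single-cell clones that carried a doxycycline-inducible MEF2C construct with the S222A change. The libraries titled S222A induced 1 to 3 and S222A uninduced 1 to 3 make up this comparison, 6 of the 12 libraries of the series, and they were chosen by their titles. S222A cells were kept in 3 ml for 48 h, either with 600 ng doxycycline or, for the uninduced group, with vehicle per the treatment protocol. The other 6 libraries are the same treatment of a line with the wild-type (WT) construct. Their values are set beside the S222A values, and all 12 libraries entered the fit. How many clones stand behind each construct is not stated, and doxycycline-treated cells without a construct were not analysed here. Whether the 3 replicates of a group came from separate cultures is not labelled. The p-values here rest on the spread within groups over all 12 libraries, and that spread may be technical.

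MEF2C is a MADS-box transcription factor that binds an A/T-rich DNA element and acts together with co-activators or with class IIa histone deacetylases. It works in muscle, neurons and blood, where it takes part in myeloid and lymphoid lineage choice, and high MEF2C is known from some acute myeloid leukaemias. Phosphorylation of a serine outside its DNA-binding domain is the subject of the series title, and alanine at that position cannot be phosphorylated. The annotated reading frame around this serine shows the site that the construct changes. In 11 of 20 complete coding MEF2C transcripts of GENCODE release 29, the S222A position holds a serine codon, for all of them at chr5:88731873-88731875 on the minus strand of GRCh38, within a coding exon (exon 7 of MEF2C-203, which encodes 473 residues). The stretch is the reference sequence from 10 codons before to 10 codons after, 5′ to 3′ on the coding strand, with the serine codon in capitals; the alanine codon of the construct is not given in the sources used here.
MEF2C-203 around the serine codon: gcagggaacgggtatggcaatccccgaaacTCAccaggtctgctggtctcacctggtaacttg

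Total counts of the S222A libraries were 8660836, 2365154 and 930960 uninduced and 2848123, 4489036 and 13134791 induced, so 3 counts stood for between 0.228 and 3.22 counts per 1000000 counts (CPM), before TMM scaling. Levels below are CPM scaled with TMM factors, in replicates 1, 2 and 3. The share of mitochondrially encoded RNA overlapped between uninduced (5.87 to 8.17%) and induced libraries (7 to 8.8%). In a principal component analysis the deepest library of each group, uninduced replicate 1 and induced replicate 3, stood apart on component 1 at 33.5 and 41.4, against -51.3 to -2.16 for the other S222A libraries. Uninduced replicate 3, the shallowest of the 6, stood apart on component 3 at -62.5. Component 2 held the induced S222A libraries at 32.6 to 47.2 and the uninduced ones at -7.8 to 9.42. PTPRC, the pan-leukocyte surface phosphatase CD45, had 539 to 624 CPM with vehicle and 643 to 760.3 CPM with doxycycline, and FLT3, CD33, SPI1, CSF3R and CD38 were detected in all 6 libraries. CEBPA had no count, CD34 at most 1 count and ANPEP at most 5 counts in any S222A library, so these myeloid and progenitor markers had few or no counts. Whether a lack of counts reflects absent RNA or the counting was not tested. Of 6 erythroid markers, 5 had no count, and the 8 T and NK cell markers together reached at most 4.16 CPM.

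MEF2C, the targeted gene, stood at 605, 701 and 802 CPM with vehicle and 919.5, 956 and 786 CPM with doxycycline. Induced replicate 3 lay below uninduced replicate 3, so the groups overlapped, and the mean of 702 ± 98.2 CPM uninduced against 887 ± 89.4 CPM induced (SD, n = 3) was not called (log2 0.34 ± 0.16 SE, adjusted p = 0.285). With a term for the deepest library of each group the log2 fold change was again 0.34 and the adjusted p = 0.0282, so the call depended on that setting. Counts per gene symbol do not separate construct from endogenous MEF2C reads, and they do not show the S222A change. In the WT line the log2 fold change of MEF2C was 0.08. The groups are therefore named by their doxycycline treatment, not by a called rise of MEF2C RNA.

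Across 11474 tested genes, doxycycline was followed by a called change (adjusted p under 0.05) in 511, which is 4.45% of those tested. There were 321 higher genes (2.80%) and 190 lower genes (1.66%). Called higher genes had the larger folds: 224 rose at least 2-fold and 68 at least 4-fold, against 69 and 7 among the lower genes. The median log2 fold change of called genes was 1.29 upward and -0.86 downward. These counts and medians include genes that reached the filter on low counts only through the S222A group where they were high. The contrast in folds is therefore a description. Called higher genes made up 1.84% of CPM uninduced and 3.99% induced, and called lower genes went from 3.05 to 1.69%. The lowest library of the higher group exceeded the highest of the lower group in 508 of the 511 called genes. The same held for 3150 of all tested genes (27.5%), 1654 higher and 1496 lower. The count fell to between 187 (without induced replicate 2) and 329 (without uninduced replicate 3) when 1 S222A library was left out. A core of 137 genes (1.19% of those tested), 104 higher and 33 lower, kept the call in all 6 of those fits with a fold within 1.5 times of the full fit and at least 20 counts in the lower group. These are called steady below, and they carry most of the description. Where an adjusted p without 1 named S222A library is given below, it is the largest of the 6 fits. Other fits of the 6 may have lost the call too. Of the called genes, 36 of the 321 higher and 5 of the 190 lower reached the level of the filter on low counts (3.05 CPM before TMM scaling) in fewer than 3 libraries outside the S222A group where they were high. Such genes had to differ to be tested at all, so their values are given as a description. Named below, they are ABHD4, CXCR3, DLL1, HIC1, HTRA3, LOXL4, RSAD2 and VPREB1 among the higher and CLEC4D and TFEC among the lower genes. Those that belong to a gene list are counted in its calls, so these counts are descriptions too.

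**Figure D1:**
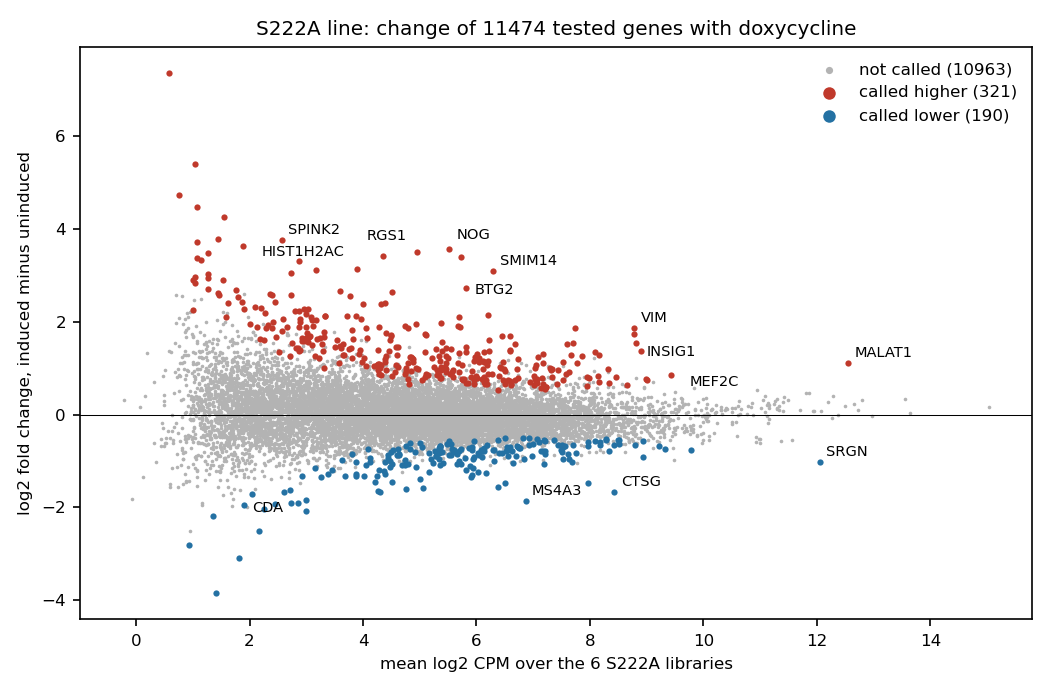
Log2 fold change with doxycycline in the S222A line (y axis) against mean log2 CPM over the 6 S222A libraries (x axis), with 1 point per tested gene. The 321 called higher genes (red) reach larger folds than the 190 called lower genes (blue), and MEF2C lies among the genes that were not called. Both called sets include genes that reached the filter on low counts only through the S222A group where they were high.

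The steady genes with the largest rises include secreted and signalling regulators. SPINK2, a serine protease inhibitor expressed in blood stem and progenitor cells, stood at 1.56, 2.87 and 0 CPM with vehicle and 23.6, 23.4 and 24.1 CPM with doxycycline. All 3 induced libraries were nearly equal and far above the uninduced ones, a 13.5-fold rise (log2 3.75 ± 0.36 SE, adjusted p = 0.000133). NOG, the secreted BMP antagonist noggin, stood at 14.7, 15.2 and 8.76 CPM with vehicle and 138, 178 and 166 CPM with doxycycline, 11.8-fold higher (log2 3.56 ± 0.24 SE, adjusted p = 5.99e-06). RGS1, which speeds GTP hydrolysis by G protein alpha subunits below chemokine receptors, stood at 10.9, 7.80 and 7.67 CPM with vehicle and 89.4, 96.8 and 128 CPM with doxycycline, an 11.3-fold rise (adjusted p = 0.000104). For both genes every induced library exceeded every uninduced one several-fold. RASD1, a Ras-related GTPase first known as a glucocorticoid-induced gene, stood at 28.3, 25.9 and 2.19 CPM with vehicle and 193, 231 and 251 CPM with doxycycline and rose 10.5-fold (adjusted p = 0.0022). Its uninduced replicate 3 lay far under the other uninduced libraries, and RASD1 lost its call when the deepest library of each group was left out, with a log2 of 3.58 against 3.39 in all libraries (adjusted p = 0.0627).

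Membrane and matrix genes were also among the largest rises. SMIM14, a small integral membrane protein, stood at 27.7, 30.4 and 21.9 CPM with vehicle and 209.5, 224 and 259.5 CPM with doxycycline, 8.49-fold higher (log2 3.09 ± 0.22 SE, adjusted p = 5.99e-06). SMIM14 was tightly grouped within each group, with no overlap. HTRA3, a secreted HtrA family serine protease, stood at 1.56, 2.05 and 3.29 CPM with vehicle and 17.0, 12.7 and 19.1 CPM with doxycycline, 8.24-fold higher. In the WT line HTRA3 stood at 0, 0.193 and 0 CPM with vehicle and 0.146, 0 and 0 CPM with doxycycline, at or near 0 in all 6 libraries. Other genes with large rises were detected there. SPINK2 stood at 5.55, 4.64 and 5.31 CPM with vehicle and 16.2, 14.6 and 13.2 CPM with doxycycline in the WT line, without overlap. LOXL4, a lysyl oxidase-like enzyme that cross-links collagen, was 5.98-fold higher, and the metalloprotease ADAM28 rose 5.91-fold. TCTN1, a tectonic of the ciliary transition zone, rose 6.35-fold.

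Growth regulators and nuclear factors form a further set. BTG2, a growth-restraining gene of the BTG and TOB family, stood at 19.8, 25.4 and 19.7 CPM with vehicle and 138, 167 and 129 CPM with doxycycline, 6.65-fold higher (log2 2.73 ± 0.18 SE, adjusted p = 5.99e-06). DUSP4, a nuclear phosphatase that inactivates ERK, stood at 8.89, 10.7 and 6.57 CPM with vehicle and 55.4, 61.1 and 53.6 CPM with doxycycline, 6.26-fold higher (log2 2.65 ± 0.21 SE, adjusted p = 2.94e-05). In both the lowest induced library was several-fold above the highest uninduced one. UBASH3B, a phosphatase that dampens tyrosine kinase signalling, stood at 9.85, 8.62 and 7.67 CPM with vehicle and 47.1, 51.3 and 45.2 CPM with doxycycline and rose 5.29-fold (adjusted p = 0.00118). HIC1, a zinc-finger repressor, was 6.04-fold higher from a low level, with 2.4, 1.64 and 1.10 CPM with vehicle and 12.8, 11.4 and 12.2 CPM with doxycycline. HIST1H2AC, a clustered histone H2A gene, stood at 5.29, 7.39 and 5.48 CPM with vehicle and 59.2, 68.9 and 63.8 CPM with doxycycline, 10.6-fold higher (log2 3.41 ± 0.24 SE, adjusted p = 5.99e-06). Histone copies share sequence, so reads of HIST1H2AC may come in part from near-identical genes.

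**Figure D2:**
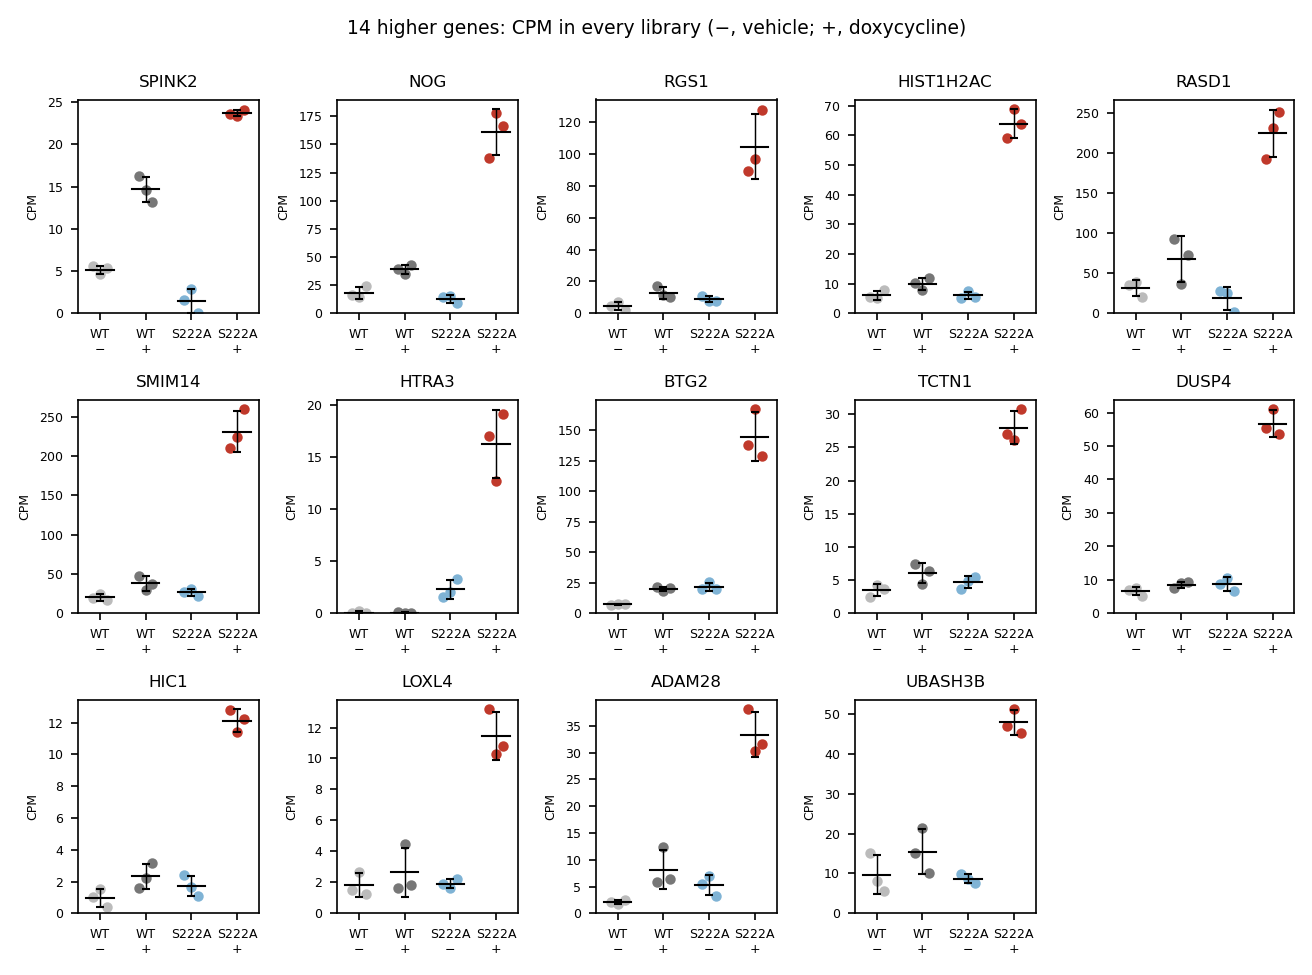
CPM in every library for 14 of the 15 steady higher genes with the largest fold, leaving out names that are only a clone, locus or open reading frame number, with 1 panel per gene; points are libraries, lines are means and bars are SD over 3 libraries, for each line without (−) and with (+) doxycycline. In all 14 panels the S222A induced libraries lie above the S222A uninduced ones, for example 138 to 178 against 8.76 to 15.2 CPM for NOG.

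Falls were smaller, and several of the largest concerned granule and myeloid genes. CDA, cytidine deaminase, which inactivates cytarabine, stood at 11.5, 14.0 and 16.4 CPM with vehicle and 2.08, 3.79 and 4.22 CPM with doxycycline, 3.77-fold lower (log2 -1.91 ± 0.27 SE, adjusted p = 0.0015). MS4A3, a four-pass membrane protein of granulocyte-monocyte progenitors, stood at 236, 193 and 235 CPM with vehicle and 59.6, 62.4 and 60.7 CPM with doxycycline, 3.64-fold lower (log2 -1.86 ± 0.17 SE, adjusted p = 8.26e-05). CTSG, the azurophil granule protease cathepsin G, stood at 733, 561 and 559.6 CPM with vehicle and 169, 198 and 219 CPM with doxycycline, 3.17-fold lower (log2 -1.66 ± 0.18 SE, adjusted p = 0.00034). The 3 induced libraries of MS4A3 lay within a few CPM of each other, and none of the 3 genes overlapped between the groups. MNDA, an interferon-inducible nuclear antigen of myeloid cells, fell 2.94-fold, from 146, 155 and 126 to 46.8, 56.6 and 42.7 CPM. S100A9, the calprotectin subunit of neutrophils and monocytes, fell 2.77-fold, from 120.4, 135 and 209 to 53.3, 71.4 and 41.8 CPM. In bulk RNA, fewer cells of a type and less RNA per cell cannot be told apart.

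Other steady falls lay outside the myeloid programme. IFT57, a subunit of the intraflagellar transport complex, stood at 49.0, 46.4 and 44.9 CPM with vehicle and 12.5, 16.9 and 16.5 CPM with doxycycline, 3.03-fold lower (log2 -1.60 ± 0.17 SE, adjusted p = 0.000256). CORO2A, a coronin, fell 3.11-fold, and P2RY2, a G protein-coupled receptor for extracellular nucleotides, fell 2.73-fold, from 32.0, 25.9 and 33.9 to 9.35, 9.81 and 13.5 CPM. MARC1, a mitochondrial amidoxime-reducing enzyme, stood at 113, 111.2 and 108 CPM with vehicle and 44.0, 47.7 and 46.4 CPM with doxycycline, 2.41-fold lower (log2 -1.27 ± 0.14 SE, adjusted p = 0.000348). IFT57 and MARC1 had some of the narrowest groups among the lower genes, with no overlap. SPNS3, of the spinster transporter family, fell 2.6-fold and VIT, which encodes the matrix protein vitrin, 2.42-fold.

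**Figure D3:**
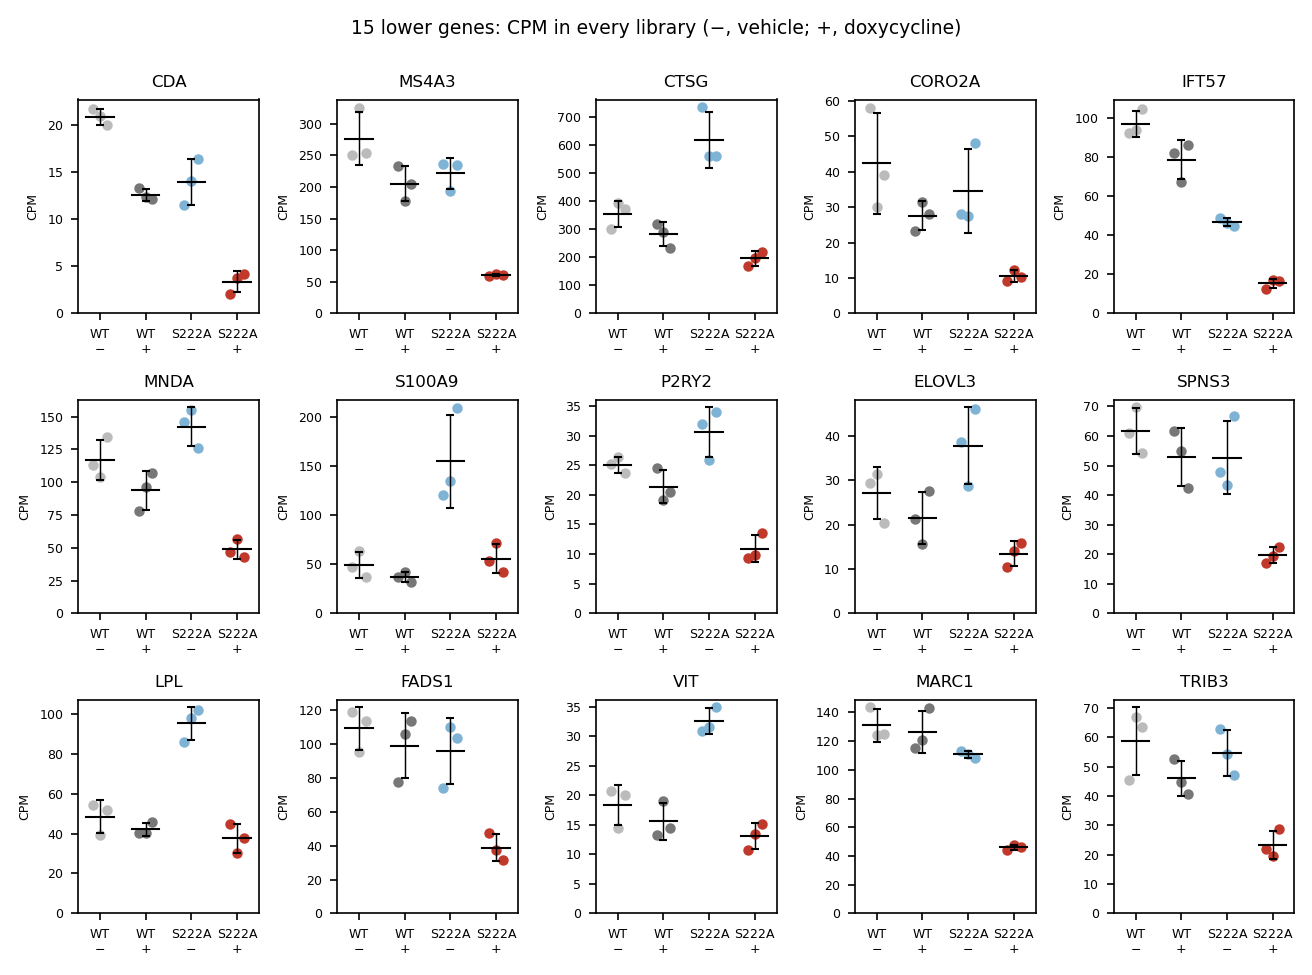
CPM in every library for the 15 steady lower genes with the largest fold, leaving out names that are only a clone, locus or open reading frame number, drawn as points with mean lines and SD bars over 3 libraries, for each line without (−) and with (+) doxycycline. In all 15 panels the S222A induced libraries lie below the S222A uninduced ones, for example 59.6 to 62.4 against 193 to 236 CPM for MS4A3.

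Abundant transcripts took part as well. SRGN, the granule proteoglycan serglycin, was the steady gene with the largest fall in CPM and stood at 5709, 6611 and 5862 CPM with vehicle and 3014, 3496 and 2466 CPM with doxycycline. It was 2.03-fold lower (log2 -1.02 ± 0.17 SE, adjusted p = 0.0047), and its highest induced library lay well below its lowest uninduced one. VIM, the intermediate filament vimentin, had the largest steady rise in CPM and stood at 221.99, 269.6 and 205 CPM with vehicle and 862, 936 and 729.5 CPM with doxycycline, 3.62-fold higher (log2 1.86 ± 0.25 SE, adjusted p = 0.00119). CAPG, an actin-capping protein of macrophages, stood at 203, 196 and 332.9 CPM with vehicle and 858, 774 and 784 CPM with doxycycline and rose 3.32-fold (adjusted p = 0.00117). MMP14, a membrane-anchored matrix metalloprotease, stood at 245, 283 and 369 CPM with vehicle and 801, 780.0 and 735 CPM with doxycycline and rose 2.59-fold (adjusted p = 0.000511). Neither CAPG nor MMP14 overlapped between the groups, although uninduced replicate 3 was the highest uninduced library for both. BASP1, a membrane-associated signalling protein, fell 1.95-fold, from 279.6, 241 and 307 to 148, 133 and 144 CPM. MALAT1, a nuclear long noncoding RNA, stood at 4477, 3706 and 4134 CPM with vehicle and 8079, 9203 and 9111 CPM with doxycycline, a 2.14-fold rise (adjusted p = 0.021, and 0.0948 without S222A uninduced replicate 2).

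Gene lists by function were read by counts and medians, beside a median log2 fold change of 0.01 over all tested genes and the 2.80% called higher and 1.66% called lower among them. The granulocyte granule and neutrophil list had 16 tested members, of which 7 were called lower, none higher and 9 not called, with a median log2 of -0.97. Beside MS4A3 and CTSG, S100P, a calcium-binding protein, was steady and fell from 152, 129 and 148 to 75.2, 60.9 and 71.6 CPM (adjusted p = 0.00647). PRTN3 (proteinase 3), AZU1 (azurocidin), RNASE2 (an eosinophil-type ribonuclease) and MPO (myeloperoxidase) fell 3.2-, 2.77-, 2.02- and 3.28-fold. Their calls did not survive every removal of 1 library, and MPO had adjusted p values up to 0.208 without S222A uninduced replicate 1; the list then kept 4 to 6 calls, fewest without induced replicate 2 or uninduced replicate 1. Among 10 monocyte and macrophage genes, S100A9, S100A8 and the lectin CLEC4D were called lower and none higher, with a median of -1.02. The log2 was negative in 8 of them and positive in 2. CAPG, named above as a macrophage protein, is not a member of this list and rose 3.32-fold, so these counts hold for the listed genes only. S100A8, the partner of S100A9, stood at 39.0, 24.6 and 24.1 CPM with vehicle and 11.4, 12.3 and 12.3 CPM with doxycycline, with an adjusted p of 0.0137 and 0.0953 without S222A uninduced replicate 1. The monocyte list kept 1 to 2 calls with 1 library left out, fewest without induced replicate 1, 2 or 3 or uninduced replicate 1.

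The stem and progenitor list had 15 tested members, 3 called higher and none lower, with a median log2 of 0.67. Beside SPINK2 these were MEIS1, a homeobox cofactor of HOXA9 in leukaemia, and HOXA5. MEIS1 stood at 56.1, 49.7 and 40.5 CPM with vehicle and 82.8, 89.4 and 84.3 CPM with doxycycline, 1.72-fold higher (adjusted p = 0.0168, and 0.0734 without S222A uninduced replicate 2), and HOXA5 at 31.4, 24.6 and 18.6 CPM with vehicle and 45.7, 46.6 and 50 CPM with doxycycline (adjusted p = 0.039, and 0.14 without S222A uninduced replicate 2). The induced libraries of MEIS1 and HOXA5 were close together and above all uninduced ones, and only SPINK2 of the 3 was steady. The list kept 1 to 3 calls with 1 library left out, fewest without induced replicate 1, 2 or 3 or uninduced replicate 2.

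Of 28 myeloid transcription factors, 3 were called higher and 3 lower, and the median was -0.05. RUNX2, a runt-domain factor better known from bone, stood at 156, 172 and 124 CPM with vehicle and 344, 386 and 354 CPM with doxycycline, 2.39-fold higher (log2 1.26 ± 0.15 SE, adjusted p = 0.000598). NFIL3, a basic leucine zipper factor, rose 2.34-fold and was steady like RUNX2, and IRF1, an interferon regulatory factor, rose 2.1-fold (adjusted p = 0.00826, and 0.0553 without S222A uninduced replicate 1). CEBPD, a granulocytic C/EBP factor, stood at 112, 124 and 101 CPM with vehicle and 53.7, 68.7 and 46.2 CPM with doxycycline, 2.01-fold lower (adjusted p = 0.00908, and 0.054 without S222A induced replicate 3). LYL1, a helix-loop-helix factor, and TFEC, of the MiT family, were 2.18- and 4.07-fold lower. The 2 steady factors kept the call in every fit with 1 library left out, while the lower ones numbered 0 to 2, fewest without induced replicate 3 or uninduced replicate 2.

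Some genes tied to MEF2 itself were called higher. Among 15 reported MEF2 targets 2 were called higher, DUSP6 and HDAC9, and none lower, with a median of 0.17. With 1 library left out 1 to 3 were called, fewest without induced replicate 2 or uninduced replicate 1 or 2. Among 17 MEF2 factors and partners only HDAC9 was called, the same gene as in the target list, with a median of 0.00. With 1 library left out 0 to 1 were called, fewest without induced replicate 1 or 2 or uninduced replicate 1 or 2. HDAC9, a class IIa deacetylase that binds MEF2 factors, stood at 27.0, 28.3 and 42.7 CPM with vehicle and 62.7, 61.3 and 54.4 CPM with doxycycline, 1.88-fold higher (adjusted p = 0.0137, and 0.0729 without S222A uninduced replicate 1). All induced libraries of HDAC9 exceeded the uninduced ones, of which replicate 3 was the highest. Among called genes the RefSeq window from 250 bases before to 50 bases after a start was searched on both strands for the MEF2 consensus, and HDAC9 is shown because it is both a MEF2 partner and a called gene. Its window at chr7:18086575-18086874 on the plus strand of GRCh38.p14 holds 1 match, which begins 8 bases before the start, and the stretch up to the end of the match is given 5′ to 3′ with the match in capitals.
HDAC9 start region: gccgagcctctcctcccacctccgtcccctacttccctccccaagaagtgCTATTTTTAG
The consensus was found in 1050 of 35116 RefSeq windows (2.99%), so a match on its own is a description and not a binding site. Windows could be matched by symbol for 8009 of the 11474 tested genes only, under 80%, so the counts that follow were not compared as shares. Among genes with a window, the consensus was found in 11 of 225 called higher, 4 of 137 called lower and 170 of 8009 tested genes. It was found in 0 of 74 steady higher genes, and HDAC9 was not steady.

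Signalling genes gave calls in both directions. Of 16 MAP kinase phosphatases and ERK feedback genes, 3 were called higher and none lower, with a median of 0.15. DUSP6, a cytoplasmic ERK phosphatase that ERK signalling induces, stood at 136, 109 and 97.5 CPM with vehicle and 289, 325 and 378 CPM with doxycycline, 2.87-fold higher (log2 1.52 ± 0.19 SE, adjusted p = 0.000741). DUSP6 and DUSP4 were steady, while DUSP10, which acts on p38 and JNK, rose 2.69-fold with an adjusted p of 0.0222 and 0.094 without S222A induced replicate 3. RPS6KA5, the kinase MSK1 below ERK and p38, stood at 27.4, 29.1 and 21.9 CPM with vehicle and 99.7, 112 and 86.7 CPM with doxycycline, 3.73-fold higher (log2 1.90 ± 0.17 SE, adjusted p = 8.4e-05). Its groups were far apart. Of 7 chemokine receptors, CXCR3 was called higher and CCR2 and CXCR4 lower, and 0 to 1 lower calls were left with 1 library out, fewest without induced replicate 1 or 2 or uninduced replicate 1. CCR2, a receptor for monocyte-attracting chemokines, stood at 66.9, 51.7 and 54.8 CPM with vehicle and 18.4, 15.6 and 23.4 CPM with doxycycline (adjusted p = 0.0137, and 0.08 without S222A induced replicate 2). CXCR4, the receptor that holds blood progenitors in the marrow, stood at 300.3, 233 and 241 CPM with vehicle and 112, 132 and 153 CPM with doxycycline, 1.95-fold lower (adjusted p = 0.0284, and 0.136 without S222A induced replicate 1). CXCR3, a receptor for interferon-induced chemokines, stood at 0.841, 2.87 and 4.38 CPM with vehicle and 17.3, 22.5 and 17.8 CPM with doxycycline, without overlap. CXCR3 is among the genes that had to differ to be tested, so its call and lack of overlap are descriptions. Within the BMP and TGF-beta list of 28 genes, NOG and the receptor TGFBR2 were higher and the ligand BMP8B and the receptor NEO1 lower. TGFBR2 stood at 10.7, 10.3 and 6.57 CPM with vehicle and 22.9, 34.3 and 33.2 CPM with doxycycline, 3.12-fold higher (adjusted p = 0.00324), and BMP8B at 85.0, 87.8 and 87.6 CPM with vehicle and 41.2, 38.1 and 40.7 CPM with doxycycline, 2.17-fold lower (adjusted p = 0.000457). BMP8B was almost the same in the 3 libraries of each group, and neither gene overlapped. NEO1 fell 3.74-fold with an adjusted p of 0.0284 and 0.12 without S222A induced replicate 3.

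NF-kB feedback genes rose where they were called. Of 21 tested, 5 were called higher and none lower, with a median log2 of 0.21, and 2 to 5 were called with 1 library left out, fewest without uninduced replicate 2. TNFAIP3, the ubiquitin-editing enzyme A20, stood at 119, 145 and 189 CPM with vehicle and 376, 348 and 251 CPM with doxycycline, 2.17-fold higher (log2 1.12 ± 0.20 SE, adjusted p = 0.00759). BIRC3, the ubiquitin ligase cIAP2, stood at 6.13, 8.62 and 5.48 CPM with vehicle and 31.5, 31.4 and 27.3 CPM with doxycycline, 4.38-fold higher (log2 2.13 ± 0.33 SE, adjusted p = 0.00309). Both were steady and did not overlap between the groups. BCL3, an atypical I-kappa-B protein, stood at 8.77, 11.9 and 25.2 CPM with vehicle and 55.8, 43.7 and 51.6 CPM with doxycycline, 3.74-fold higher (adjusted p = 0.00793, and 0.0532 without S222A uninduced replicate 2), and CYLD and NFKBIA rose 1.69- and 2.15-fold. Of 26 type I interferon-stimulated genes, IRF7 and RSAD2 were called higher, the median was 0.50, and 0 to 2 calls were left with 1 library out, fewest without induced replicate 2 or uninduced replicate 1. IRF7, the factor that drives interferon genes, stood at 3.24, 5.34 and 5.48 CPM with vehicle and 11.8, 14.9 and 12 CPM with doxycycline, 2.97-fold higher, and its induced libraries lay above all uninduced ones.

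Adhesion genes were higher where they were called. Of 28 integrin, selectin and adhesion genes 6 were called higher and none lower, 5 of them steady, with a median of 0.42. CD82, a tetraspanin, stood at 44.4, 45.6 and 49.3 CPM with vehicle and 122, 112 and 122 CPM with doxycycline, 2.57-fold higher (log2 1.36 ± 0.14 SE, adjusted p = 0.000245). ITGA6, a laminin-binding integrin subunit, stood at 3.48, 2.87 and 3.29 CPM with vehicle and 17.0, 15.2 and 15.9 CPM with doxycycline, 4.87-fold higher (log2 2.28 ± 0.28 SE, adjusted p = 0.000709). CD44, the hyaluronan receptor, stood at 257, 269 and 275 CPM with vehicle and 461, 478 and 453 CPM with doxycycline, 1.74-fold higher (log2 0.80 ± 0.13 SE, adjusted p = 0.00394). The 3 libraries of each group were close together for CD44 and ITGA6, with a wide gap between groups. CD53 and ITGB7 rose 2.58- and 2.75-fold, and ITGAL 1.98-fold. AHNAK, a giant scaffold protein at the membrane, and LMNA, which encodes lamin A and C of the nuclear envelope, rose 2.47- and 2.37-fold and were steady. ARHGAP18, a GTPase-activating protein for RhoA, rose 1.83-fold.

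Some quiescence genes rose and some growth genes fell. Of 24 FOXO target and quiescence genes, 6 were called higher and none lower, with a median log2 of 0.56, and 2 to 4 calls were left with 1 library out, fewest without induced replicate 2 or 3 or uninduced replicate 1 or 2. TXNIP, which binds thioredoxin and restrains glucose uptake, stood at 127, 103 and 106 CPM with vehicle and 363, 402 and 458 CPM with doxycycline, 3.63-fold higher (log2 1.86 ± 0.19 SE, adjusted p = 0.000219), and was the steady one. FOXO3, a forkhead factor of stem cell quiescence, stood at 40.7, 36.9 and 33.9 CPM with vehicle and 63.4, 73.1 and 74.7 CPM with doxycycline, 1.87-fold higher (adjusted p = 0.0137, and 0.0654 without S222A uninduced replicate 2). Among 19 CDK inhibitors and G1 cyclins, the INK4 genes CDKN2C and CDKN2D were called, 1.62- and 1.91-fold higher, with 0 to 1 calls when 1 library was left out, fewest without induced replicate 1 or 2 or uninduced replicate 1 or 2. In the ribosome biogenesis and MYC target list 44 of 45 tested genes had a negative log2, 7 were called lower and none higher, and the median was -0.60. None of the 7 was steady, and 0 to 3 were called with 1 library left out, fewest without induced replicate 1 or 2. DDX21, a nucleolar RNA helicase, stood at 1215, 1014 and 1202 CPM with vehicle and 622, 654 and 744 CPM with doxycycline, 1.7-fold lower (adjusted p = 0.0108, and 0.0773 without S222A induced replicate 1). The induced libraries of DDX21 all lay below the uninduced ones, as did those of NOP16, a nucleolar protein at 212, 196 and 184 CPM with vehicle and 100.1, 108 and 121 CPM with doxycycline.

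DNA replication and mitosis genes had mostly negative log2 values, and those called were lower. Of 48 DNA replication and G1/S genes 47 had a negative log2, 7 were called lower and none higher, with a median of -0.44. Of 43 G2/M and mitosis genes 42 were negative, 3 were called lower and none higher, with a median of -0.40. With 1 library left out the replication list kept 0 to 4 and the mitosis list 0 to 2 calls, fewest without induced replicate 2 or 3 or uninduced replicate 2 for the first and induced replicate 1, 2 or 3 or uninduced replicate 2 or 3 for the second. RFC3, a clamp loader subunit, stood at 138, 178 and 207 CPM with vehicle and 101, 94.1 and 82.6 CPM with doxycycline, 1.87-fold lower (adjusted p = 0.0118, and 0.0592 without S222A induced replicate 3). MCM7, a subunit of the replicative helicase, stood at 328, 298 and 373 CPM with vehicle and 232, 228 and 217 CPM with doxycycline, 1.47-fold lower (adjusted p = 0.0332, and 0.115 without S222A induced replicate 2). MCM7 was called in 0 of the 6 fits with 1 library left out. The induced libraries of RFC3 and MCM7 were lower than each uninduced library. MYBL2, a cell cycle transcription factor, fell 1.77-fold and CCNB1, the mitotic cyclin B1, 1.58-fold, at adjusted p = 0.049 and 0.0471. Of 32 heat shock and folding genes 4 were called lower and none higher, with a median of -0.42 and 0 to 2 calls with 1 library left out, fewest without induced replicate 1, 2 or 3. HSPH1, a large HSP70-type chaperone, fell 1.71-fold from 401, 371 and 502 to 244, 259 and 239.5 CPM.

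**Figure D4:**
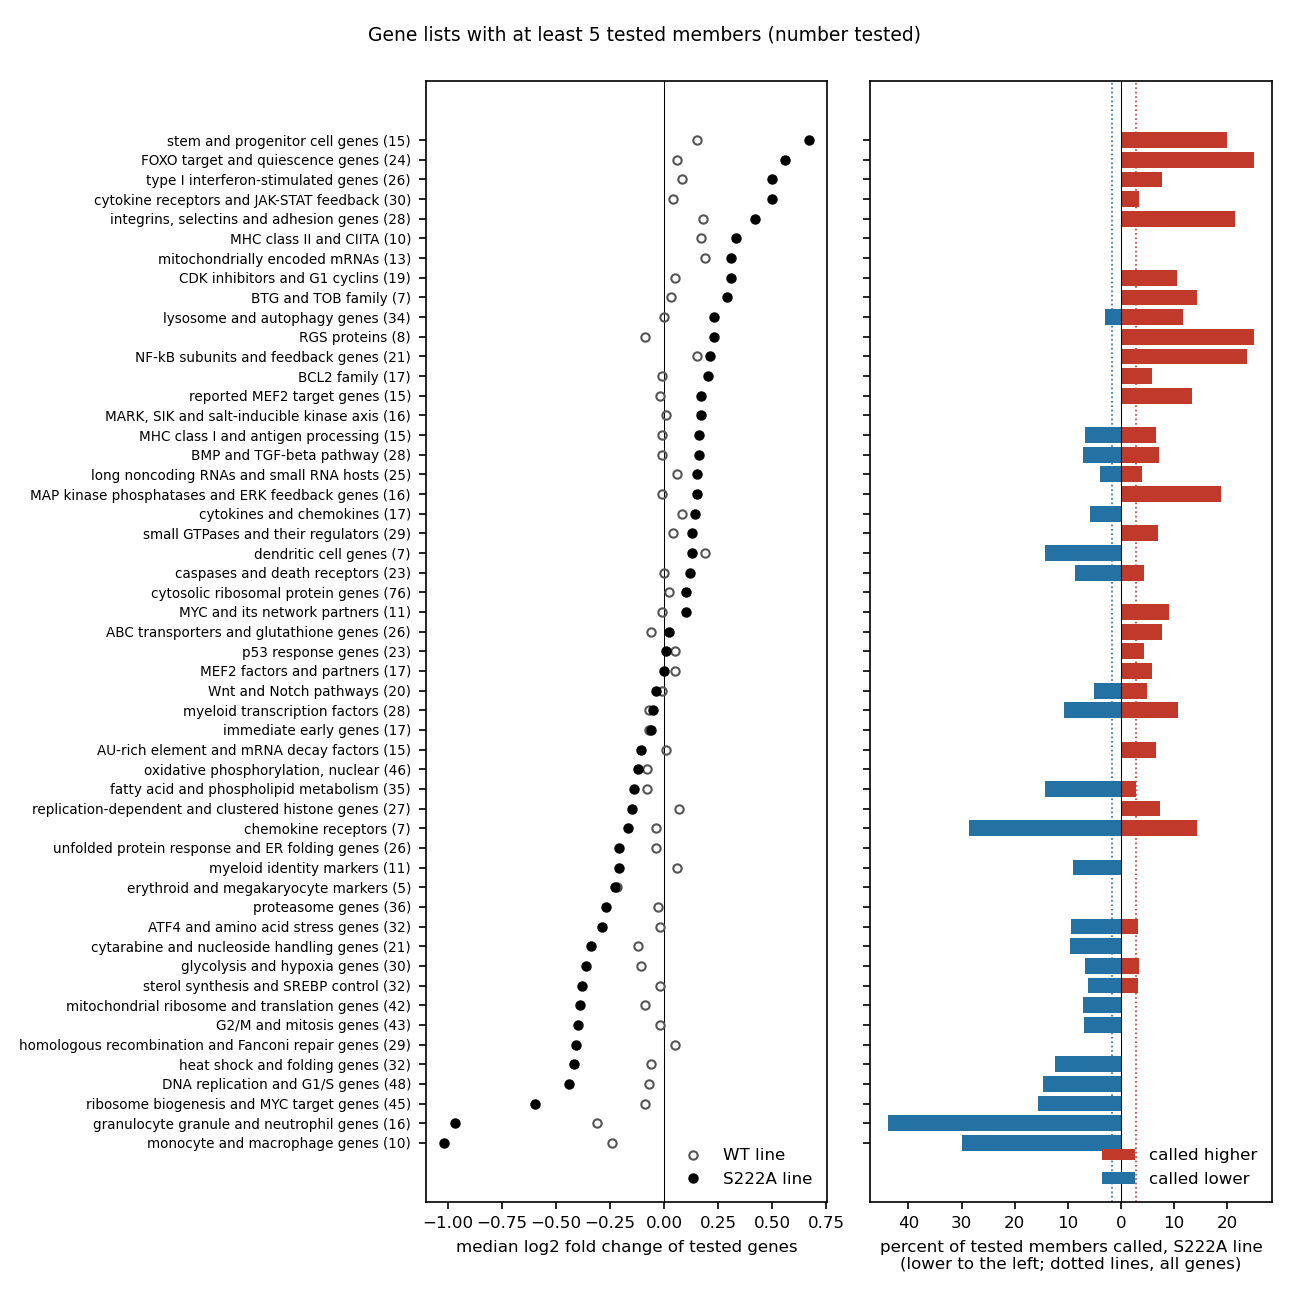
Median log2 fold change of tested members with doxycycline in the S222A line (filled) and in the WT line (open), and percent of tested members called higher or lower in the S222A line, by gene list. Granule, monocyte and ribosome biogenesis lists lie at -0.97, -1.02 and -0.60 in the S222A line, and the stem and progenitor list at 0.67.

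Metabolic genes gave calls in both directions. Of 35 fatty acid and phospholipid genes 5 were called lower and 1 higher, with a median of -0.14. LPL, lipoprotein lipase, stood at 86.1, 98.1 and 102 CPM with vehicle and 45.0, 30.5 and 37.7 CPM with doxycycline, 2.52-fold lower (log2 -1.33 ± 0.18 SE, adjusted p = 0.0015). FADS1, a fatty acid desaturase, stood at 73.9, 110.4 and 104 CPM with vehicle and 47.4, 37.5 and 31.8 CPM with doxycycline, 2.47-fold lower (adjusted p = 0.00504), and its neighbour FADS2 and the carboxylase ACACA fell 2.1- and 1.65-fold. LPL and FADS1 were steady and did not overlap, and the list kept 2 to 5 lower calls with 1 library left out, fewest without induced replicate 2 or uninduced replicate 1. ABHD4, a lysophospholipase-type enzyme and the higher member, had 1.32, 0.821 and 0 CPM with vehicle and 14.2, 11.8 and 13.4 CPM with doxycycline. ELOVL3, a fatty acid elongase, fell 2.72-fold. Of 32 sterol synthesis and SREBP control genes, SQLE and DHCR7 were lower and INSIG1 was higher, with a median of -0.38. DHCR7, the last reductase of cholesterol synthesis, was 1.94-fold lower (adjusted p = 0.023, and 0.1 without S222A induced replicate 3), and the list kept 1 to 2 lower calls with 1 library left out, fewest without induced replicate 2 or 3 or uninduced replicate 1 or 3. INSIG1, which holds SREBP precursors in the endoplasmic reticulum, stood at 277, 290.2 and 230.0 CPM with vehicle and 771, 842 and 699 CPM with doxycycline, 2.89-fold higher (log2 1.53 ± 0.17 SE, adjusted p = 0.00034). SQLE, squalene epoxidase, stood at 99.1, 89.5 and 85.4 CPM with vehicle and 34.6, 44.6 and 43.6 CPM with doxycycline, 2.23-fold lower (log2 -1.16 ± 0.15 SE, adjusted p = 0.00117). INSIG1 and SQLE were steady and moved in opposite directions without overlap. Of 30 glycolysis and hypoxia genes, the lactate transporter SLC16A1 fell 1.78-fold and was steady, LDHA fell 1.57-fold and KDM3A rose 1.61-fold, neither steady.

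Of 32 ATF4 and amino acid stress genes 3 were called lower and 1 higher. TRIB3, a pseudokinase that ATF4 induces, stood at 62.9, 54.2 and 47.1 CPM with vehicle and 21.8, 19.4 and 28.7 CPM with doxycycline, 2.35-fold lower (log2 -1.24 ± 0.21 SE, adjusted p = 0.00577). VLDLR, a lipoprotein receptor in that list, moved the other way and stood at 37.1, 45.1 and 50.4 CPM with vehicle and 122, 107 and 102 CPM with doxycycline, 2.54-fold higher (log2 1.34 ± 0.19 SE, adjusted p = 0.0015). PHGDH, the first enzyme of serine synthesis, fell 1.71-fold (adjusted p = 0.026, and 0.118 without S222A induced replicate 1). Among 21 cytarabine and nucleoside handling genes CDA and NME1 were called lower, both steady, with a median of -0.34. NME1, a nucleoside diphosphate kinase, stood at 248, 242 and 304 CPM with vehicle and 136, 156 and 147 CPM with doxycycline, 1.8-fold lower (log2 -0.85 ± 0.14 SE, adjusted p = 0.0047). MVP, the major vault protein, stood at 4.68, 4.51 and 2.19 CPM with vehicle and 18.0, 19.6 and 14.9 CPM with doxycycline, 4.13-fold higher (log2 2.05 ± 0.30 SE, adjusted p = 0.00241), and GPX1, a glutathione peroxidase, rose 1.66-fold with an adjusted p of 0.0148 and 0.0939 without S222A uninduced replicate 2. MVP had no overlap but a low level in every library. BMF, a BH3-only protein that promotes apoptosis, rose 2.28-fold and was steady, from 14.3, 14.0 and 12 to 28.4, 31.0 and 34.1 CPM. The death receptor gene TNFRSF10A and the TNF receptor gene TNFRSF1B fell 1.71- and 1.57-fold, with adjusted p values of up to 0.132 and 0.202 when 1 library was left out.

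Lysosomal and antigen presentation genes were called in both directions. Of 34 lysosome and autophagy genes 4 were called higher and 1 lower, with 1 to 2 higher calls when 1 library was left out, fewest without induced replicate 1 or uninduced replicate 2 or 3. CTSB, the lysosomal protease cathepsin B, stood at 70.2, 62.0 and 58.0 CPM with vehicle and 118, 118 and 140.1 CPM with doxycycline, 1.97-fold higher (log2 0.98 ± 0.16 SE, adjusted p = 0.00403), and was the steady one. HLA-E, a non-classical class I molecule, stood at 175, 196 and 207 CPM with vehicle and 348, 332 and 320.4 CPM with doxycycline, 1.73-fold higher (log2 0.79 ± 0.15 SE, adjusted p = 0.00939). NLRC5, which activates class I genes, stood at 51.8, 47.6 and 61.3 CPM with vehicle and 28.4, 22.5 and 26.6 CPM with doxycycline, 2.05-fold lower (adjusted p = 0.00973, and 0.0617 without S222A induced replicate 2). HLA-E was steady, and neither gene overlapped. ZFP36L1, which binds AU-rich elements and promotes mRNA decay, stood at 30.2, 26.3 and 17.5 CPM with vehicle and 101, 94.3 and 135 CPM with doxycycline, 4.29-fold higher (log2 2.10 ± 0.23 SE, adjusted p = 0.00034). HIST1H2BK, a clustered histone H2B gene, stood at 151, 176 and 226 CPM with vehicle and 512, 411 and 413 CPM with doxycycline, 2.43-fold higher (log2 1.28 ± 0.23 SE, adjusted p = 0.00832). Both were steady, and neither overlapped between the groups.

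Some lymphoid genes were higher too. TRAC, the T cell receptor alpha constant gene, stood at 5.53, 5.34 and 3.29 CPM with vehicle and 37.4, 33.7 and 61.9 CPM with doxycycline (adjusted p = 0.00923, and 0.0578 without S222A uninduced replicate 2). CD3E had no count in 5 of the 6 libraries and 1 count in induced replicate 3, and the T and NK markers together were at 0.961 to 2.19 CPM with vehicle and 0.877 to 4.16 CPM with doxycycline. VPREB1, a surrogate light chain gene of B cell precursors, had no count in any uninduced library and 12, 18 and 69 counts induced, at least 17.7-fold higher against a floor of 3 counts over the uninduced group. Since VPREB1 was tested only through its induced libraries, no p is given for it. Summed B cell markers were at 6.57 to 8.29 CPM with vehicle and 6.91 to 11.8 CPM with doxycycline, with MS4A1 at 2 counts or fewer in every library. CD3E and MS4A1 were thus at or near 0 in both groups. DLL1, a Notch ligand, stood at 0.240, 0 and 0 CPM with vehicle and 5.89, 6.47 and 11.3 CPM with doxycycline. With only 2 counts over the uninduced group no fold is given for DLL1.

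Set beside the WT line, the S222A response went mostly in the same direction. The genes counted here were chosen by their S222A change, and the WT values are set beside them. Of the 321 called higher genes 277 (86.3%) also had a positive log2 in the WT line, and of the 190 called lower genes 160 (84.2%) a negative one, where 61.1% of all tested genes had the same sign in both lines. The median WT log2 was 0.26 for the called higher and -0.18 for the called lower genes. In the WT line itself 1 gene was called (0.00872% of those tested), BTG2, with a log2 of 1.47 (adjusted p = 0.0498). BTG2 stood there at 7.07, 7.53 and 7.35 CPM with vehicle and 21.6, 17.9 and 20.5 CPM with doxycycline. The call was lost in each fit without 1 WT library. The difference of the responses was called in 9 genes (0.0784%), all of them also called in the S222A line, and 766 genes had an unadjusted p under 0.05. With 1 of the 12 libraries left out the difference was called in 0 to 4 genes, and with the replicate block in 0. The count was 0 without S222A uninduced replicate 1 or 2, any of the induced S222A replicates, WT uninduced replicate 1 or WT induced replicate 2 or 3. The 9 were DUSP4, HIST1H2AC, NOG, SMIM14, RPS6KA5 and INSIG1, with a larger rise in the S222A line, and MS4A3, BMP8B and MARC1, with a larger fall. NOG stood at 16.1, 14.5 and 24.5 CPM with vehicle and 39.2, 34.8 and 42.9 CPM with doxycycline in the WT line, a log2 of 1.11 against 3.56 in the S222A line (difference adjusted p = 0.0184). DUSP4 stood at 7.07, 7.53 and 5.31 CPM with vehicle and 7.45, 8.97 and 9.21 CPM with doxycycline there, a log2 of 0.32 (difference adjusted p = 0.0184). In the WT line the groups did not overlap for NOG and overlapped for DUSP4.

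**Figure D5:**
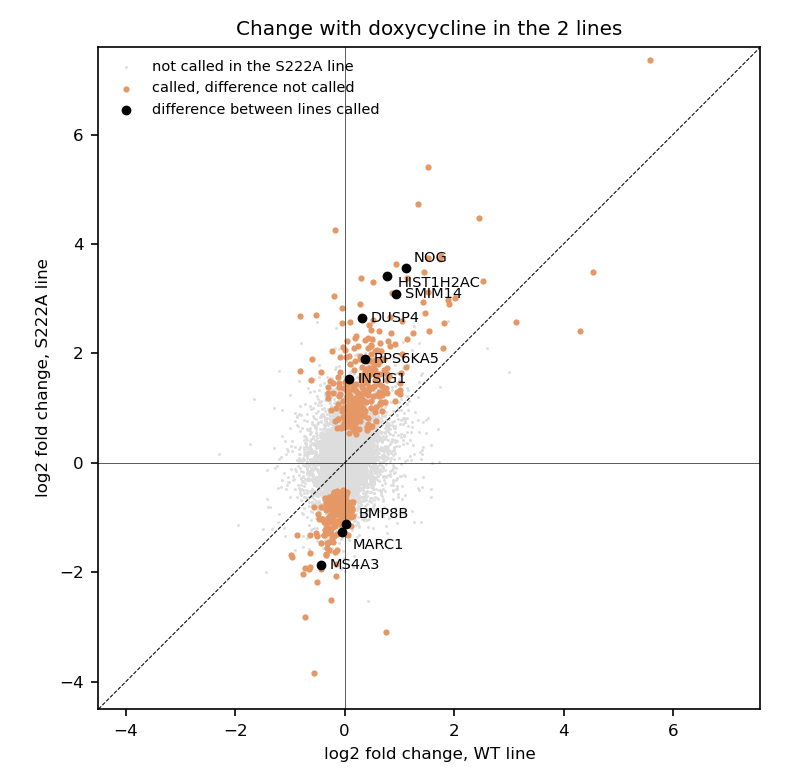
Log2 fold change with doxycycline in the S222A line (y axis) against the WT line (x axis), with 1 point per tested gene (grey, not called in the S222A line; orange, called there) and the dashed line marking equal change. The 9 genes with a called difference in all 12 libraries (black, named; 0 to 4 genes with 1 library left out) lie farther from 0 on the y axis than on the x axis, for example NOG at 3.56 and 1.11.

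Some steady genes were named for their small difference between the lines. AHNAK stood at 94.1, 94.4 and 84.3 CPM with vehicle and 213, 243 and 221 CPM with doxycycline in the S222A line and at 53, 49.6 and 58.4 CPM with vehicle and 109, 118 and 88.4 CPM with doxycycline in the WT line. The log2 fold changes of AHNAK were 1.30 and 0.96, a difference of 0.34 ± 0.21 SE. TNFAIP3 had log2 fold changes of 1.12 and 0.67, a difference of 0.45 ± 0.29 SE. Since they were chosen that way, the closeness is a description. Effects of doxycycline alone and of the construct cannot be told apart in these libraries.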

How the data were processed

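RNA was measured in 12 libraries of OCI-AML2 clones, prepared with TruSeq RNA chemistry (per the labels). The values are unnormalized counts per gene symbol, as deposited in a single table. The submitters' processing notes name hg19, STAR 2.4, HTSeq 0.6.1 and DESeq2 without roles; the strand setting is not given in the sources used here, so overlapping antisense genes cannot be told apart. Columns were matched to samples by position, because the header line lacks a tab, and the header names were then checked against the sample descriptions. Genes were kept by filterByExpr (minimum count 10), leaving 11474 of 55765. All 12 libraries were fitted with 1 mean per group by edgeR 4.0.16 (R 4.3.3; TMM, robust quasi-likelihood F tests, Benjamini-Hochberg over all tested genes), called at an adjusted p under 0.05, and the fit was tested on simulated data. The biological coefficient of variation was 24.8%. SE is the absolute log2 fold change over the square root of F. Alternatives used DESeq2 1.42.0, limma 3.58.1, other factors and filters, a replicate block and left-out libraries. The comparison and its 55 gene lists were chosen with earlier results of these data known. Named genes are MEF2C, the 15 higher and 15 lower steady genes with the largest fold (1 of the higher genes is not reported here), the 5 and 5 with the largest CPM change, up to 4 called members per list, and the 5 steady genes with the smallest adjusted p of the difference and the 5 with the smallest difference between lines; genes known only by a clone, locus, open reading frame or FAM number were left out of these rankings. Other called list members are named as completing a count. Every pair of S222A replicates differed by more than sampling noise. Floors cover counting error only.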

Additional observations from a re-analysis of the deposited data

Results flagged for a closer look

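In 9 genes the change with doxycycline differed between the S222A and the WT line, by edgeR's test of the difference itself. For NOG the S222A minus WT difference in log2 fold change was 2.44 (adjusted p = 0.0184). HIST1H2AC had a difference of 2.63 (adjusted p = 0.0184), with WT levels of 5.55, 5.02 and 7.76 CPM with vehicle and 10.1, 7.85 and 11.8 CPM with doxycycline. DUSP4 had 2.33 (adjusted p = 0.0184) and SMIM14 2.14 (adjusted p = 0.0184). RPS6KA5 followed at 1.53 (adjusted p = 0.0438) and INSIG1 at 1.44 (adjusted p = 0.0458). INSIG1 overlapped between the WT groups, with 336, 254 and 304 CPM with vehicle and 299, 280.3 and 370.3 CPM with doxycycline. The larger falls in the S222A line were MS4A3 at -1.44 (adjusted p = 0.0438), MARC1 at -1.22 (adjusted p = 0.0458) and BMP8B at -1.14 (adjusted p = 0.0438). Each kept its direction in the 21 other settings run, with differences from 2.20 to 2.64 for NOG and from -1.57 to -1.33 for MS4A3. Since these settings reuse the libraries in which the 9 were called, or some of them, the kept direction is a description. All 9 lost the call in at least 1 fit without a single library. None of the 9 was called without S222A uninduced replicate 1 or 2, without any 1 of the induced S222A replicates, or without WT uninduced replicate 1 or WT induced replicate 2 or 3.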

How the results depend on the processing

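Counts of called S222A genes stood within 1.5 times of 511 with RLE or upper quartile factors, limma-voom, no filter on low counts, a minimum count of 30, only the 6 S222A libraries, or without the deepest library of each group. The genes called were not all the same. Of the 511, 372 were shared without the deepest libraries, 395 without the filter and 403 with only the 6 S222A libraries. The rest of these settings shared 460 to 507. DESeq2 called 811, with 363 lower. A term for the deepest libraries gave 2052, with 1006 higher and 1046 lower, and shared all 511. Leaving out 1 S222A library gave 187 to 329 called genes, 140 to 226 higher and 42 to 103 lower. The cause of these changes was not tested, except that leave-one-out fits have fewer samples.

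Whether replicate numbers pair the samples could not be decided. Same-numbered S222A libraries correlated at -0.48, 0.12 and -0.43 in their deviations from the group means. Uninduced replicate 1 and induced replicate 3, the deepest library of each group, correlated at 0.68, so the check could not separate pairing from depth. With the replicate block 235 genes were called, 170 higher and 65 lower, all among the 511, and the block called 0 genes for the difference between lines and 0 in the WT line.

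For the difference between lines, 9 genes became 22 without the filter, 36 with DESeq2, 147 with the term, and 0 to 4 with 1 library left out. In the WT line 1 gene became 0 with upper quartile factors, limma-voom, without the deepest libraries and in each fit without 1 WT library (0 to 0), 2 without the filter, 4 with DESeq2 and 6 with the term. MEF2C had a log2 of 0.34 and was called with the term (adjusted p = 0.0282). None of the 511 called genes changed direction in the 16 other settings run. Those settings reuse the libraries in which the genes were called, or some of them, so the kept direction is a description. Depth limits low genes: 3 counts stand for 3.22 CPM before TMM scaling in S222A uninduced replicate 3.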

Other observations

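Several functions had no called gene by edgeR in the S222A line, and their medians are given as values. The immediate early genes, the FOS, JUN, EGR and NR4A factors induced within minutes of a stimulus, had a median log2 of -0.06 over 17 genes. The MARK and SIK kinases, which phosphorylate class IIa deacetylases and other substrates, had a median of 0.17 over 16 genes. Cytosolic ribosomal protein genes had 0.10 over 76 genes, proteasome genes -0.27 over 36 genes, and nuclear respiratory chain genes -0.12 over 46 genes. The unfolded protein response list had -0.21 over 26 genes. Repair genes of the homologous recombination and Fanconi pathways had -0.41 over 29 genes, of which 27 were negative, and no member was called. The 13 mitochondrially encoded mRNAs all had a positive log2, with a median of 0.31 in the S222A and 0.19 in the WT line. In the mitochondrial ribosome list 40 of 42 genes were negative, MRPS12, MRPS5 and MRPL44 were called lower, and the median was -0.39. With 1 library left out this list kept 0 to 1 calls, fewest without induced replicate 1, 2 or 3 or uninduced replicate 2. MHC class II genes had 0.33 over 10 genes, with no member called. A p that misses the threshold does not show that these genes did not change.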
